A study of Mus musculus with 13 samples.

Results

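The BMP and TGF-β signaling machinery of endothelial cells (ECs) was followed through 10 transcripts, taken as a list of symbols. They were the ligands Tgfb1 and Bmp4, the co-receptor Eng (endoglin, CD105), the type I receptors Acvrl1 (ALK1) and Tgfbr1 (ALK5), the type II receptors Bmpr2 and Tgfbr2, the inhibitory Smads Smad6 and Smad7 and the target gene Id1. All 10 were found among the 23690 genes listed in both sets of libraries, and all 10 passed the filter on low counts in each set.

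RNA-Seq had been done on 13 libraries of mouse ECs in 2 experiments, which asked what changes in ECs that lack Apelin, a secreted peptide of angiogenic vessels. In the tumor experiment, CD31+/CD105+ ECs were sorted from mammary tumors of E0771, a mouse carcinoma line, with 100 cells per Smart-Seq2 library. The Apelin-depleted group (KO, n = 3 libraries) came from E0771 cells with the hairpin shApln grown in C57BL6/J Apln-/- mice, which carry a germline deletion in every cell. The Apelin wild-type group (WT, n = 6) came from shRenilla E0771 cells in wild-type C57BL6/J mice, so host genotype and tumor-cell hairpin differed together. The age of the mice is not given in the sources used here.

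In the sprout experiment, CD31+ ECs were sorted from embryoid bodies (EBs) that were sprouting in collagen. The EBs grew from female C57BL/6x129 mouse embryonic stem cells of haploid origin with a gene trap in an intron of Apln. In the group STOP (n = 2) the trap lay in the sense orientation, which stops transcription. In the group GO (n = 2) the trap had been turned to antisense in sister cells with a Cre retrovirus. Both groups received 30 ng/mL VEGFA164. By the study's legends, STOP EBs also received DMSO and GO EBs 1000 nM Apelin Pyr13, so trap orientation, Cre virus and added peptide cannot be told apart. No source used here says whether the replicates were separate animals or cultures, so the p-values measure the spread between these libraries only.

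In ECs, BMP ligands of the circulation bind a complex of ALK1 (Acvrl1), the type II receptor Bmpr2 and the co-receptor endoglin, and the activated receptors phosphorylate Smad1, Smad5 and Smad9, which drive Id1 and Smad6. TGF-β1 binds Tgfbr2, which recruits ALK5 (Tgfbr1) and signals through Smad2 and Smad3, and Smad7 is induced as a brake on the receptors. Mutations in human ENG and ACVRL1 cause hereditary hemorrhagic telangiectasia, a disease of arteriovenous malformations, and mutations in BMPR2 cause pulmonary arterial hypertension.

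Total counts lay between 4661044 and 14455093 per tumor library and between 12327030 and 16804071 per sprout library, so that 3 counts, the upper limit that a count of 0 allows, corresponded to at most 0.644 CPM (counts scaled to library size) in the tumor ECs and 0.243 CPM in the sprout ECs. These limits cover counting error only. Apln itself lay between 2.44 and 12.1 CPM in the KO libraries and between 416 and 1033 CPM in the WT libraries. In the sprout libraries it did not follow the label: Apln was 66.1 and 80.2 CPM in STOP against 58.2 and 65.9 CPM in GO (log2 fold change 0.24, adjusted p = 0.367), and where in the gene these reads fell was not analysed here. Directions in the sprout ECs are therefore given between the libraries labelled STOP and GO. All 12 endothelial markers examined (Pecam1, Cdh5, Tek, Tie1, Kdr, Flt1, Emcn, Erg, Cldn5, Esam, Egfl7 and Vwf) had counts in every library. Their summed level was 8035 to 14744 CPM in the tumor ECs, 2578 to 2708 CPM in GO and 645 to 881 CPM in STOP. The sprout libraries also held transcripts of the pluripotent state: 8 such markers, among them Pou5f1 and Nanog, summed to 2077 to 3497 CPM in GO and 5419 to 5553 CPM in STOP, against at most 6.35 CPM in any tumor library. Fewer ECs and less RNA per EC cannot be told apart in these bulk libraries.

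Per library total, the TGF-β ligand and the ALK1-endoglin receptor pair were lower in the sprout libraries labelled STOP. Relative to the summed endothelial markers, Tgfb1 and Acvrl1 were near level and Eng was higher in STOP, as given below. Of the 10 transcripts, 3 passed an adjusted p of 0.05 with an absolute log2 fold change above 1, and Tgfb1, Acvrl1 and Eng all fell. By the same rule 3.03% of the 14557 genes tested were lower. All 10 fold changes lay below 0 (median -0.85), against 49.5% of all genes tested. At an unadjusted p of 0.05, 7 of the 10 were lower, against 14.3% of all genes. In 8 of the 10 both STOP libraries lay below both GO libraries, against 29.6% of all genes. The plot of sprout levels shows each library.

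**Figure D1:**
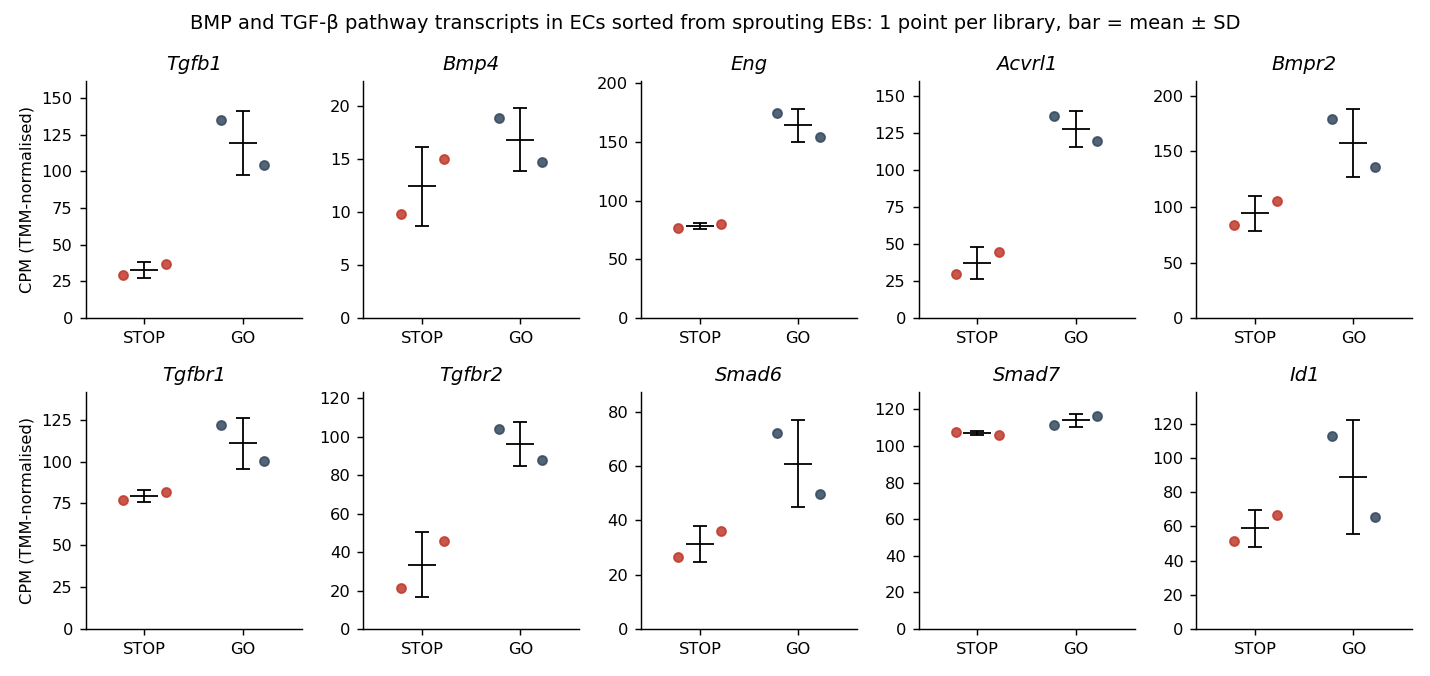
TMM-normalised CPM (vertical axes) of the 10 transcripts in ECs sorted from sprouting EBs; each point is 1 library labelled STOP (n = 2) or GO (n = 2), and bars give the mean ± SD. STOP and GO points are apart in 8 panels and overlap for Bmp4 and Id1; for Tgfb1 the STOP libraries sit at 29.2 and 36.7 CPM, below 104 and 135 CPM in GO.

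Among the ligands, Tgfb1 was measured at 29.2 and 36.7 CPM in the 2 STOP libraries and at 135 and 104 CPM in the 2 GO libraries. The groups were well apart, and Tgfb1 fell by 1.86 on the log2 scale (SE 0.19, adjusted p = 0.00437), to 0.276 of the GO level. Bmp4, a ligand that patterns mesoderm and acts on ALK2, ALK3 and ALK6 receptors, lay at 9.82 and 15.1 CPM in STOP and at 18.9 and 14.8 CPM in GO. The Bmp4 groups overlapped, and its log2 fold change of -0.44 (SE 0.28) did not pass the test (adjusted p = 0.343).

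Among the BMP receptors, Eng was at 76.8 and 80.6 CPM in STOP and at 174 and 154 CPM in GO. Endoglin presents ligand to ALK1 and marks activated ECs, and its transcript fell by 1.06 on the log2 scale (SE 0.13, adjusted p = 0.00746). Acvrl1 was at 29.9 and 45.1 CPM in STOP and at 137 and 120 CPM in GO, and fell by 1.78 (SE 0.21, adjusted p = 0.00775). The STOP libraries thus held 0.292 of the GO level of Acvrl1 and 0.479 of that of Eng. Bmpr2 was at 83.4 and 106 CPM in STOP and at 179 and 136 CPM in GO. Its groups were apart, but the log2 fold change of -0.74 (SE 0.18) missed the threshold (adjusted p = 0.0567).

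Of the TGF-β receptors, Tgfbr2 was at 21.5 and 45.5 CPM in STOP and at 104 and 88.1 CPM in GO. This was the widest spread between STOP libraries among the receptors, and the log2 fold change of -1.53 (SE 0.39) did not pass (adjusted p = 0.101). Tgfbr1 was at 76.9 and 81.9 CPM in STOP and at 122 and 100.2 CPM in GO, a smaller difference of -0.49 on the log2 scale (SE 0.15, adjusted p = 0.0922).

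None of the feedback and target genes passed the test. Smad6, which blocks BMP type I receptors, was at 26.5 and 36.1 CPM in STOP and at 72.2 and 49.6 CPM in GO (log2 fold change -0.96, SE 0.23, adjusted p = 0.0586). Smad7, which degrades and blocks both receptor classes, was nearly level at 108 and 106 CPM in STOP and 112 and 116 CPM in GO. Its log2 fold change was -0.09, with a 95% interval from -0.38 to 0.20, narrower than that of any other of the 10 transcripts. Id1, the helix-loop-helix inhibitor that serves as a standard readout of BMP signaling, was at 51.3 and 66.7 CPM in STOP and at 113 and 65.5 CPM in GO. Its groups overlapped through the lower GO library, and the log2 fold change of -0.60 (SE 0.29) did not pass (adjusted p = 0.250).

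Without STOP replicate 2 Tgfbr2 was at -2.17 and called (adjusted p = 0.00163), and without STOP replicate 1 it was at -1.06. Smad6 was called without GO replicate 2. Over left-out libraries Bmp4 ran from -0.79 to -0.14 and Id1 from -0.93 to -0.15. The call of Eng rested on single libraries, since without STOP replicate 1 its adjusted p was 0.0659 and without GO replicate 1 its log2 fold change was -0.97. Against a null of a log2 change of 1, with edgeR's glmTreat, none of the 3 passed (adjusted p = 0.0719 for Tgfb1, 0.144 for Acvrl1 and 1 for Eng).

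The promoter windows of the pair Eng and Tgfb1, which fell together, and of the feedback gene Smad6 are shown for the short motifs that Smads and ETS factors are known to bind. The windows are those of RefSeq on GRCm38.p6, written 5′ to 3′ on the strand of the gene, with 250 bases before the annotated start and the first 10 of the transcript. Capitals mark matches, on either strand, to GTCTAGAC (the palindromic Smad-binding element), GGCGCC (a GC-rich BMP Smad element), CAGAC (a short Smad3 and Smad4 element) and AGGAAG (an ETS element), none of which contains another.
Eng, chr2:32646345-32646604, plus strand: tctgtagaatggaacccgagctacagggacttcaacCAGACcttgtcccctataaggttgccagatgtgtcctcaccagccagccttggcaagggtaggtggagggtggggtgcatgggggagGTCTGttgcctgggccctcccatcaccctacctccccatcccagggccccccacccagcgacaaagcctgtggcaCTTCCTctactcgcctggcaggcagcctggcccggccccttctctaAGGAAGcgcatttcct
Tgfb1, chr7:25686752-25687011, plus strand: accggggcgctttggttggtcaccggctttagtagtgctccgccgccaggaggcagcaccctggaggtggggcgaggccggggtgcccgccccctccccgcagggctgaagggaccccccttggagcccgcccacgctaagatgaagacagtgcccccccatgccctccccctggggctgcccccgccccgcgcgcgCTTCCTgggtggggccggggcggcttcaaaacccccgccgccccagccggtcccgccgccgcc
Smad6, chr9:64022050-64022309, minus strand: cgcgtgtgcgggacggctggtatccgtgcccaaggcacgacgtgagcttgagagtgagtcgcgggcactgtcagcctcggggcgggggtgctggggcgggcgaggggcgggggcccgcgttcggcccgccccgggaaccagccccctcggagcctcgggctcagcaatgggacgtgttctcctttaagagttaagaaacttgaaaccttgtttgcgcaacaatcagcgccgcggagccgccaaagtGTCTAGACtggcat

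The palindrome in the Smad6 window lay across the annotated start, from position -4, with the first transcribed base at position 0. It is present in 0.213% of the 32851 promoter windows of 300 bases in the table. AGGAAG was found in 7 of the 8 windows, which belong to 7 of the 10 genes (35.4% of all windows), CAGAC in 3 (49.6%) and GGCGCC in 2, those of Bmpr2 and Tgfbr1 (11.9%). In the Eng window the 2 AGGAAG matches began at -52 and -6, and in the Tgfb1 window the match began at -53. The matches describe letters only, and no binding was measured. Windows of Acvrl1, Id1 and Smad7 were not used here. Eng lies at chr2:32646595-32682669 and Acvrl1 at chr15:101128522-101145336 (mm10). The Eng gene overlaps Fpgs on the opposite strand, and reads from the 2 genes cannot be told apart unless strand was used in counting, which is not stated.

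The endothelial markers of the sprout libraries moved with these changes, though not all alike. Of the 12 endothelial markers 11 were called lower in STOP, with a median log2 fold change of -1.96. The exception was Pecam1, which encodes CD31, the antigen of the sort. It was at 139 and 169 CPM in STOP and at 264 and 273 CPM in GO, and its log2 fold change of -0.80 was the nearest to 0. Scaling to Pecam1 alone was not run. When counts were scaled to the sum of the 12 markers in place of the library total, the median of all genes shifted by 1.82. On that scale Tgfb1 (-0.05), Acvrl1 (0.01) and Tgfbr2 (0.23) lay near 0, that is, they held a like ratio to the endothelial markers in STOP and GO. Tgfb1 was at 45.2 and 41.7 counts per 1000 endothelial marker counts in STOP and at 49.8 and 40.4 in GO. Acvrl1 was at 46.3 and 51.1 in STOP and at 50.4 and 46.4 in GO. The groups of both genes overlapped on this scale.

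Eng did not follow the markers so closely: it was at 119 and 91.4 counts per 1000 endothelial marker counts in STOP and at 64.3 and 59.8 in GO. Its log2 fold change on this scale was 0.76 (SE 0.33), opposite in sign to that per library. Smad6 (0.84), Bmpr2 (1.07), Id1 (1.21), Bmp4 (1.34), Tgfbr1 (1.34) and Smad7 (1.74) also lay above 0, and 5 of the 10 were called higher, against 86.9% of all genes on that scale. All 10 lay below the median of all genes, which was 1.83. This restates their place below 0 per library, because the scaling moved genes by a nearly common amount (median 1.82). The plot of both scalings shows the order, which ran from Tgfb1 to Smad7.

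**Figure D2:**
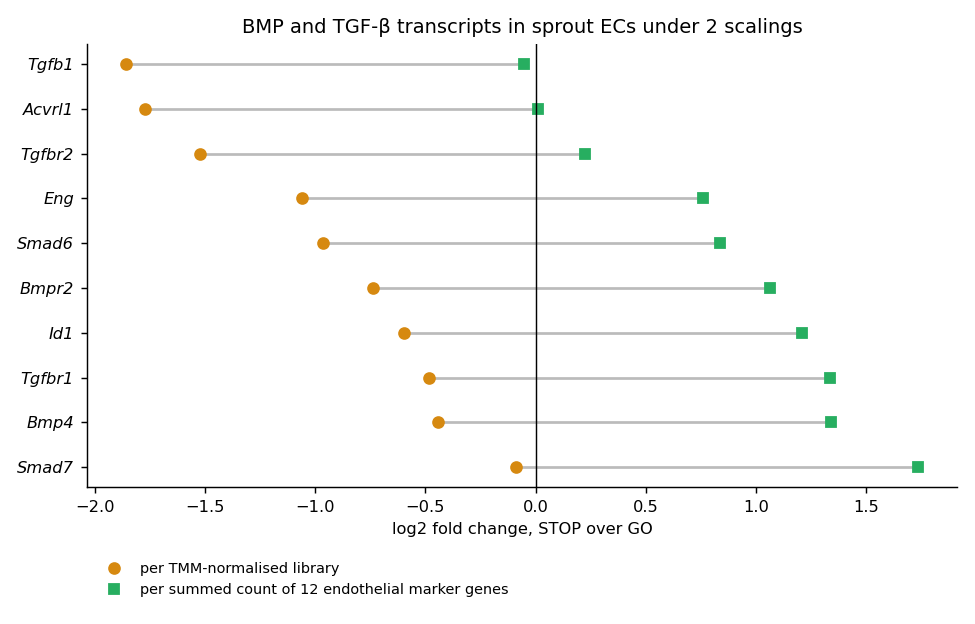
log2 fold change, STOP over GO, of each transcript in sprout ECs (horizontal axis) per TMM-normalised library (circles) and per summed count of 12 endothelial marker genes (squares). All circles lie below 0, from -1.86 for Tgfb1 to -0.09 for Smad7, and the squares run from -0.05 for Tgfb1 to 1.74 for Smad7.

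Other cell types were present in uneven amounts. Summed fibroblast markers were at 461 and 2948 CPM in STOP and at 2924 and 611 CPM in GO, so that STOP replicate 2 and GO replicate 1 stood above the others. Summed mural cell markers lay at 94.0 and 304 CPM in STOP and at 498 and 156 CPM in GO. STOP replicate 2 and GO replicate 1 were also the higher library of their group for 9 of the 10 transcripts, all but Smad7. The part of these cells in the results was not tested.

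In tumor ECs, none of the 10 transcripts passed the test between Apelin-depleted and Apelin wild-type tumors. By the same rule Apln alone, 0.00765% of the 13073 genes tested, was called. With all 9 libraries and the filter on low counts, none of the 10 reached an unadjusted p of 0.05 in edgeR, against 2.94% of genes lower and 1.87% higher at that level. With no filter Smad6 did (adjusted p = 0.601), and with 1 library left out 0 to 2 of the 10 did. DESeq2 also called none, where 0.429% of all genes were lower and 0.0868% higher. In 8 of the 10 the fold change lay above 0 (48.1% of all genes did), with a median of 0.39. The KO and WT libraries overlapped for every one of the 10. The endothelial markers, none of which was called, also lay above 0 in 12 of 12, with a median of 0.36. Scaled to those markers, which shifted all genes by a median of -0.35, Eng was at 0.21, Acvrl1 at 0.06, Tgfb1 at 0.05 and Tgfbr2 at 0.03, and Tgfbr1 turned to -0.13. Bmpr2 was at 0.23, Bmp4 at 0.19, Smad6 at 0.95, Smad7 at -0.54 and Id1 at -0.41 on this scale.

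**Figure D3:**
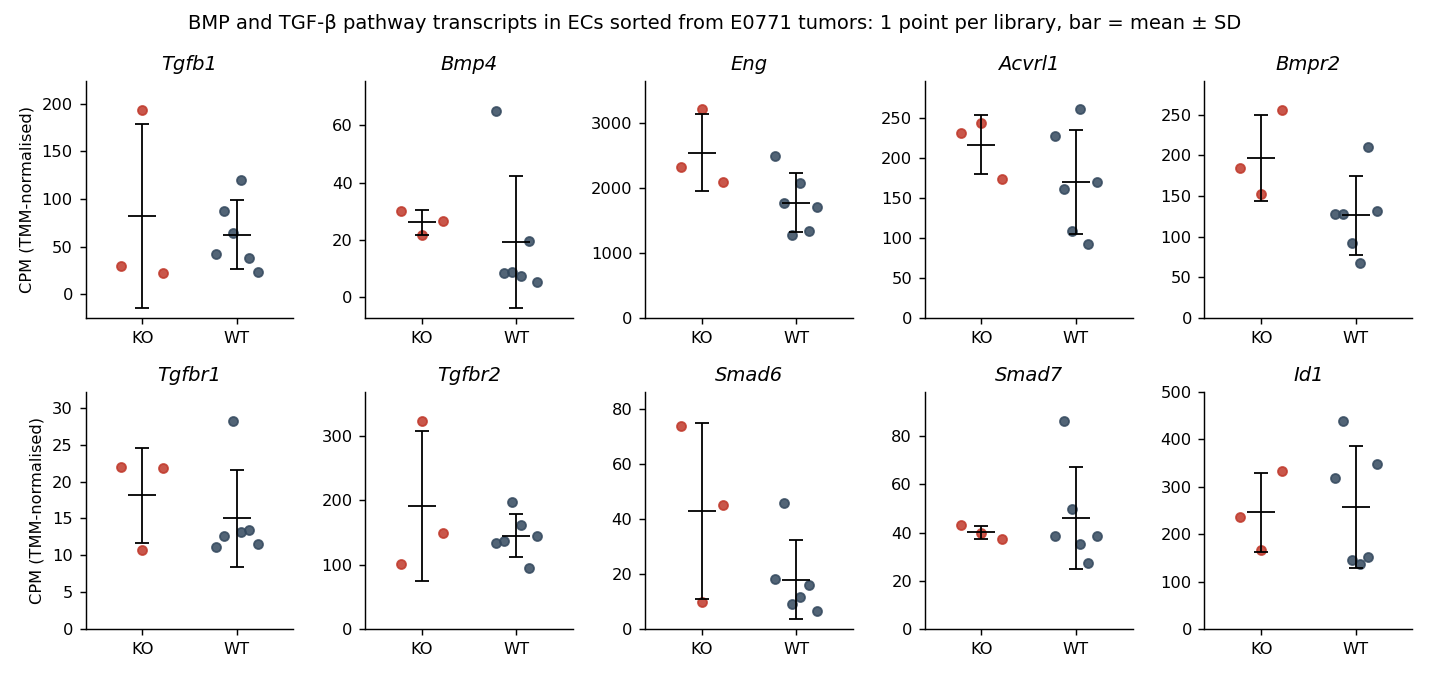
TMM-normalised CPM (vertical axes) of the 10 transcripts in CD31+/CD105+ ECs sorted from E0771 tumors; each point is 1 library of the group KO (n = 3) or WT (n = 6), and bars give the mean ± SD. The groups overlap in every panel; 1 KO library stands at 193 CPM for Tgfb1 and 323 CPM for Tgfbr2, apart from the other 2 KO libraries.

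Eng was the most abundant of the 10 in tumor ECs, at 2322, 3217 and 2092 CPM in KO and at a lowest of 1275, a highest of 2492 and a mean of 1779 ± 459 CPM (SD, n = 6) in WT. CD105 was used with CD31 to sort these cells, so the presence of Eng follows from the gate. The log2 fold change of Eng was 0.52 (SE 0.28, 95% interval -0.08 to 1.11, adjusted p = 1.00). Acvrl1 was at 231, 243 and 174 CPM in KO and between 92.2 and 260.5 CPM in WT (0.35, SE 0.34). Bmpr2 was at 184, 152 and 255 CPM in KO and between 67.9 and 211 CPM in WT (0.64, SE 0.34). For both genes the KO libraries lay within or just above the WT range.

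The values of Tgfb1 and Tgfbr2 rested on 1 library, KO replicate 2. Tgfb1 was at 30.1, 193 and 22.1 CPM in KO and between 23.3 and 120 CPM in WT, with KO replicate 2 above and KO replicate 3 below all WT libraries. Tgfbr2 was at 100.3, 323 and 150 CPM in KO and between 95.2 and 197 CPM in WT. The log2 fold changes were 0.39 (SE 0.64) for Tgfb1 and 0.40 (SE 0.35) for Tgfbr2. Without KO replicate 2 they turned to -1.27 and -0.22. Tgfbr1 was low in all tumor libraries, at 21.9, 10.7 and 21.8 CPM in KO and between 11.1 and 28.3 CPM in WT.

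Smad6 was at 73.7, 9.64 and 45.2 CPM in KO, with a fold change of 1.25 (SE 0.65, 95% interval -0.12 to 2.63). Without KO replicate 1 this was 0.61, below Tgfb1 (0.78) and Bmpr2 (0.69). In WT it lay between 6.65 and 45.9 CPM, and KO replicates 2 and 3 fell within this range. Smad7 was at 43.0, 40.0 and 37.4 CPM in KO and between 27.4 and 86.5 CPM in WT (-0.20, SE 0.42). Id1 was at 237, 167 and 334 CPM in KO and between 137 and 439 CPM in WT (-0.06, SE 0.40). Bmp4 was at 30.2, 21.7 and 26.7 CPM in KO, while 4 WT libraries lay between 5.51 and 8.94 CPM and the other 2 at 19.6 and 65.1 CPM (0.45, SE 0.72, and 1.39 without WT replicate 1). Smad6 and Id1 are both targets of BMP Smads, and their fold changes lay on either side of 0 with neither past the test.

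WT replicate 2, the highest WT library for Smad6, Smad7 and Id1, also held the most fibroblast transcripts, with summed markers of 5032 CPM against 42.9 to 205 CPM in the other tumor libraries. Without it the fold change of Smad6 was 1.80. Of the fibroblast markers tested, 5 of 5 lay below 0 in KO (median -4.64), as did 7 of 8 mural cell markers (median -1.77), against 51.9% of all genes. None was called, and in these lists the groups of Col3a1 and Pdgfrb did not overlap, which 1.27% of all genes showed in that direction. The count and median of the fibroblast markers rested in part on WT replicate 2. Dcn was at 2097 CPM there and at 0.141 to 8.41 CPM in the other WT libraries, against 0.170, 159 and 23.0 CPM in KO. Col1a1 was at 882 CPM there and at 5.16 to 40.3 CPM in the other WT libraries, against 3.40 to 7.39 CPM in KO. Summed mural markers were at 66.3 to 73.1 CPM in KO and at 62.1 to 439 CPM in WT. The tumor ECs had been gated as CD45-negative, and blood cell markers summed to 785 CPM in KO replicate 1 and 591 CPM in WT replicate 4, and to at most 49.7 CPM elsewhere. Of the 6 blood markers tested 5 lay above 0 in KO, and this count rested in part on KO replicate 1. Lyz2 was at 601 CPM there and at 2.18 and 3.17 CPM in the other KO libraries, against 8.34 to 455 CPM in WT. Cd68 was at 115 CPM there and at 0.985 and 4.26 CPM in the other KO libraries, against 0.695 to 40.7 CPM in WT. Itgam was highest in KO replicate 3, at 12.4 CPM. The marker below 0, S100a8, a neutrophil gene, had 0 counts in all 3 KO libraries and 0.391 to 13.7 CPM in WT. Smad6 was highest in KO replicate 1. The part of these cells in the results was not tested.

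The intervals of the tumor ECs were wider than those of the sprout ECs for 9 of the 10 transcripts, all but Tgfbr2, as the plot of fold changes shows. On simulated counts of the same depth, edgeR found 0% of true log2 changes of 1 and 35.2% of those of 2 in the tumor design, and 31.1% and 83.8% in the sprout design. A true change of 1 lies at the fold threshold itself, and by the adjusted p alone 0% of such changes passed in the tumor design and 46.9% in the sprout design.

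**Figure D4:**
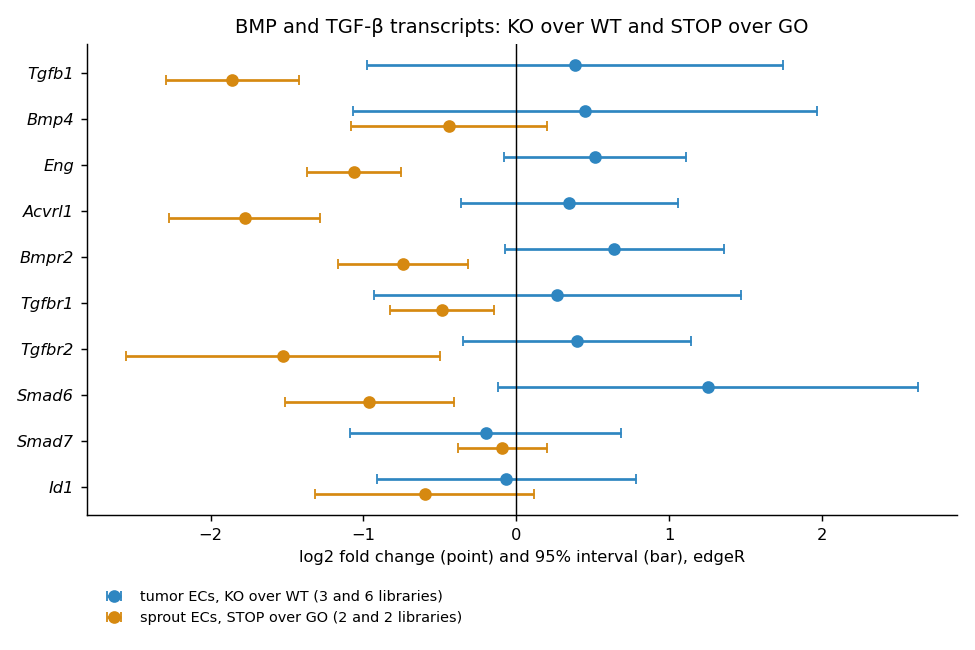
log2 fold change (points) with 95% intervals from edgeR (bars) of the 10 transcripts, for KO over WT in tumor ECs (3 and 6 libraries) and STOP over GO in sprout ECs (2 and 2 libraries). Every tumor interval spans 0; 7 of the 10 sprout intervals lie below 0.

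The difference between the 2 changes was tested in 1 fit of all 13 libraries as tumor KO over WT minus sprout STOP over GO. None of the 10 passed an adjusted p of 0.05, as 0.00635% of the 15749 genes did (Apln alone), and 4 reached an unadjusted p of 0.05, against 4.88% of all genes. They were Acvrl1 with a difference of 2.08 (SE 0.54, adjusted p = 0.294), Eng with 1.53 (SE 0.43, adjusted p = 0.398), Tgfbr2 with 1.88 (SE 0.61, adjusted p = 0.594) and Bmpr2 with 1.33 (SE 0.55, adjusted p = 0.940). These 4 were picked by unadjusted p alone. The tumor cells were sorted on CD105, the product of Eng, and the sprout cells were sorted on CD31 without it. The part of this gate in the difference of Eng was not tested. With counts scaled to the endothelial markers the differences of Eng (-0.55), Tgfbr2 (-0.19) and Bmpr2 (-0.83) changed sign and that of Acvrl1 was 0.05. In the fits per experiment this scaling shifted all genes by a median of -0.35 in tumor ECs and 1.82 in sprout ECs. A lower difference thus followed from the scaling for genes in general. Taken from 2 separate fits with a normal approximation, 6 of the 10 differences passed, against 3.88% of all genes.

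Levels of different genes were compared per length only. In the sprout ECs, by the deposited TPM, Id1 stood first in both groups with 145 ± 67.7 TPM in GO and 83.7 ± 15.7 TPM in STOP (SD, n = 2 each). In GO it was followed by Tgfb1 (90.0 ± 23.2), Eng (73.4 ± 12.4) and Acvrl1 (55.7 ± 9.61), and Bmp4 was last (13.7 ± 2.91). In STOP the next were Smad7 (32.5 ± 0.785) and Eng (31.6 ± 0.813), whose libraries overlapped. Acvrl1 moved from the fourth to the sixth place in this order and Tgfb1 from the second to the fourth. In GO the libraries of Id1 overlapped with those of Tgfb1, and those of Tgfb1 with those of Eng, while Eng and Acvrl1 were apart. Neighbours overlapped from Smad7 down to Bmpr2 in GO and from Acvrl1 down to Bmp4 in STOP.

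In the tumor ECs, by CPM per kilobase of transcript, Eng came first (740 ± 173 in KO, n = 3, and 518 ± 134 in WT, n = 6) and Id1 second (263 ± 89.9 and 275 ± 138). Acvrl1 followed at 60.2 ± 10.3 and 47.3 ± 18.2, and Tgfbr1 was last in both groups at 3.20 ± 1.14 and 2.65 ± 1.16. Neighbours from Acvrl1 down to Bmp4 overlapped in KO, and in WT only Id1 and Acvrl1 were apart from each other. Tgfbr2 stood at 40.4 ± 24.8 in KO and 30.7 ± 7.13 in WT, so that in each group every library of the type II TGF-β receptor lay above every library of the type I receptor Tgfbr1.

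Of 51 further genes of the pathways, 47 were tested in sprout ECs, and 2 were called lower and none higher, against 3.03% lower and 0.852% higher of all genes, so the count lay near the background. Bmp2, a ligand of the BMP branch, was at 3.66 and 6.35 CPM in STOP and 21.4 and 14.6 CPM in GO, and fell by 1.86 (SE 0.34, adjusted p = 0.0262). Tgfbr3 (betaglycan), the co-receptor related to endoglin, was at 25.7 and 27.2 CPM in STOP and 88.2 and 64.6 CPM in GO, and fell by 1.53 (SE 0.19, adjusted p = 0.00621). Without STOP replicate 1 neither gene was called, and without GO replicate 1 Bmp2 was not (adjusted p = 0.139). With endothelial marker scaling Bmp2 was at -0.08 and Tgfbr3 at 0.29, neither past the test, and 31 of the list were called higher, against 86.9% of all genes. With no threshold on the fold, 6 passed and all fell, against 626 of all 14557 genes lower and 6.22% in either direction. The further 4 were Furin (-0.83), which cleaves pro-TGF-β, Pmepa1 (-0.86), a TGF-β target, Ltbp1 (-0.67), which tethers latent TGF-β, and Acvr1 (-0.78), which encodes the BMP type I receptor ALK2. In all, 41 of the 47 lay below 0, with a median of -0.57.

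By role, 5 of 5 further ligands tested, 6 of 6 Smads, 4 of 4 BMP targets and 7 of 7 genes of latent TGF-β activation lay below 0 in STOP, as did 4 of 6 receptors, 4 of 6 TGF-β targets and 11 of 13 antagonists, against 49.5% of all genes. The ligand Bmp7 lay close to 0, at -0.01, and the 6 receptors had a median of -0.07. The BMP target Tmem100, an ALK1-dependent endothelial gene, had the lowest fold change (-2.59, SE 0.63, adjusted p = 0.0527). Among the signal transducers Smad1 was at -0.61 (adjusted p = 0.0853) and Smad3 at -0.65 (adjusted p = 0.0970). The secreted BMP-binding protein Bmper (-1.72) and the Smad corepressor Ski (-0.51) lay below 0 as well, with adjusted p-values of 0.0595 and 0.0606. The TGF-β corepressor Skil (0.39) lay above 0 (adjusted p = 0.173). It had both STOP libraries above GO, as had 3 of the 47 genes and 4519 of all 14557 genes tested.

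In tumor ECs, 42 of the 51 genes were tested and none was called. With no filter on low counts Ltbp4 alone was called (adjusted p = 0.0440), as were 0.0411% of all genes in that direction. In edgeR 4 reached an unadjusted p of 0.05 and all 4 lay above 0, against 1.87% of all genes higher and 2.94% lower at that level. They were Ltbp4 (1.62, SE 0.41, adjusted p = 0.686), a latent TGF-β binding protein, Thbs1 (1.29, adjusted p = 0.957), an activator of latent TGF-β, and the TGF-β targets Ctgf (1.33, adjusted p = 0.948) and Pmepa1 (1.00, adjusted p = 0.955). Thbs1 was at 418, 1246 and 139 CPM in KO and between 138 and 333 CPM in WT, with KO replicate 2 far above the rest. Ltbp4 was the only gene of the list whose groups did not overlap, at 365, 966 and 390 CPM in KO and between 80.5 and 332 CPM in WT, which 1.06% of all genes showed in that direction. Without KO replicate 2 the log2 fold change of Ltbp4 was 1.01, and with the replicate number as a block it was 1.02. In the other roles the lowest p belonged to Tgfb2 (0.93), Bmpr1a (-1.90), Smad9 (2.47), Id2 (0.89) and Fst (2.68), whose groups all overlapped, with unadjusted p-values from 0.0701 to 0.136 in edgeR. The circulating ALK1 ligands Gdf2 (BMP9) and Bmp10 were at or near 0 in every library, with at most 2 counts, and were not tested. The plot by role shows both sets.

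**Figure D5:**
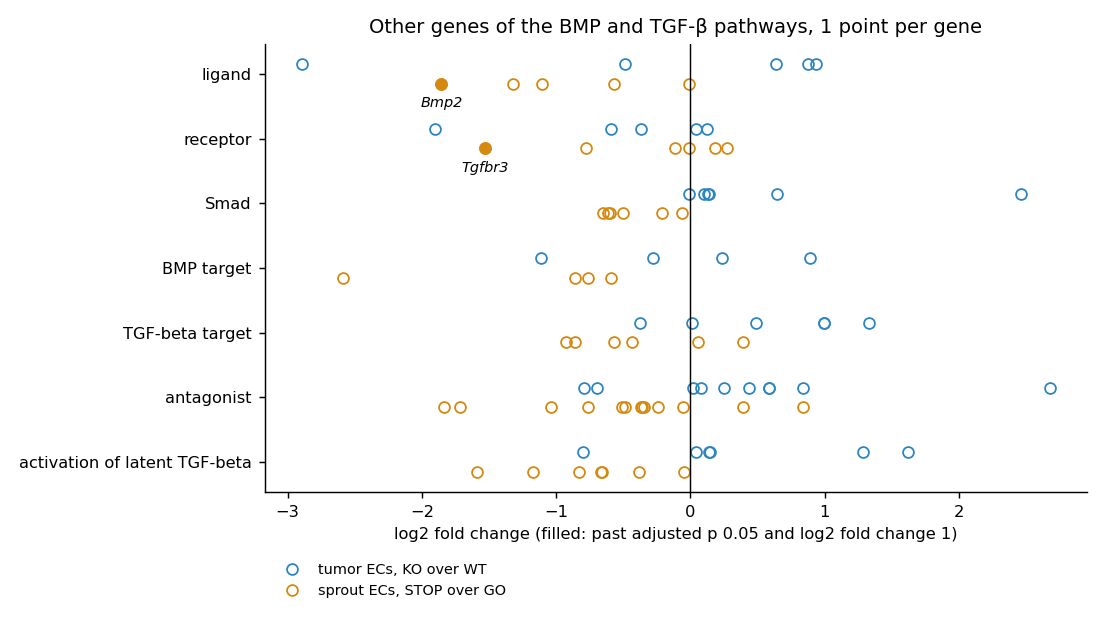
log2 fold change (horizontal axis) of the further BMP and TGF-β pathway genes tested, 1 circle per gene, in rows by role, for KO over WT in tumor ECs (42 genes) and STOP over GO in sprout ECs (47 genes). Filled circles passed both thresholds; they are Bmp2 and Tgfbr3 in sprout ECs, and 41 of the 47 sprout values lie left of 0.

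Genes whose levels ran most like those of Eng, Acvrl1 and Id1 were sought over the 13 libraries, by the root mean square difference of log2(CPM + 1) after centring within each experiment. For Acvrl1 they were Scarf1 (0.23), an endothelial scavenger receptor, Dll4 (0.26), the Notch ligand of tip cells and arteries, and Fyn (0.28), a Src family kinase. The fold changes of Scarf1 were 0.24 in tumor ECs and -1.53 in sprout ECs, beside 0.35 and -1.78 for Acvrl1. For Eng they were Lgmn (0.22), Stat5b (0.22) and Ripk1 (0.24), whose sprout fold changes of -0.64, -0.79 and -0.37 were smaller than that of Eng. For Id1 they were Itm2b (0.25), Gskip (0.26) and Disp1 (0.31). The 13 libraries share the group differences described above, and the likeness is a description.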

How the data were processed

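The authors deposited whole-number gene counts per library (featureCounts for 9 tumor libraries, HTSeq 0.6.1p1 after STAR 2.5.0a for 4 sprout libraries, mm10), and for the sprouts also RSEM 1.2.25 expected counts and TPM. For the tumor libraries the submitters' processing notes list Trim Galore 0.5.0, Bowtie2 2.3.4.1 and Subread 1.6.2, while the methods of the study name STAR. HTSeq left out 42.6% to 49.6% of sprout reads as not unique. Deposited FPKM were not used here.

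From these counts, TMM-normalised CPM were computed, and the quasi-likelihood test of edgeR 4.0.16 under R 4.3.3 was run on the counts (filterByExpr, robust fit, Benjamini-Hochberg over all genes tested), in 1 fit per experiment. A gene was called at an adjusted p under 0.05 with a log2 fold change beyond 1 in either direction. The tumor design was 3 KO against 6 WT libraries and the sprout design 2 STOP against 2 GO. Tumor CPM per kilobase used RSEM's mean transcript length.

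Alternatives were DESeq2 1.42.0, its size factors, limma 3.58.1 voom with quality weights, rounded RSEM expected counts, no filter, a replicate block, endothelial marker scaling and each library left out. The crossed block, CPM per kilobase and glmTreat were added after the data were seen. Both designs were tested on simulated data, with 200 genes changed at each fold size.

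The 10 members, the lists and the rule for named genes were chosen with earlier results of these data known. Named were the members, listed genes past a threshold and those with the lowest p in each role (up to 20 in all), and the 3 genes most like Eng, Acvrl1 and Id1. Bmp7, Gdf2, Bmp10, Col3a1, Pdgfrb and S100a8 were named outside this rule, after their values were seen. Promoter sequences are from RefSeq (GRCm38.p6), and 7 of 10 members matched by symbol. Ctgf and Cyr61 are listed in the tumor table under their newer symbols Ccn2 and Ccn1.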

Additional observations from a re-analysis of the deposited data

Results flagged for a closer look

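Among the 6 WT tumor libraries, 3 members had 1 library set apart from the others by a gap of more than 0.625 of the whole range. This is the 95% critical value of Dixon's test, which about 1 in 20 groups of normally distributed values exceed by chance. The gaps were taken on untransformed CPM, whose distribution was not checked. The share of all genes past this value is not given here, so the 3 members have no background beside them. Bmp4 was 65.1 CPM in WT replicate 1 (gap 0.763 of the range). Tgfbr1 was 28.3 CPM in WT replicate 3 (0.870). Smad6 was 45.9 CPM in WT replicate 2 (0.704), the library with 5032 CPM of summed fibroblast markers. Without WT replicate 1 the fold change of Bmp4 was 1.39, the highest over left-out libraries, against 0.45 with it.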

How the results depend on the processing

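The share of all sprout genes called lower was 3.03%, against 0.282% with the replicate number as a block, 3.23% with the DESeq2 Wald test, 3.25% with no filter, 6.41% with crossed numbers and 0.914% to 3.61% over left-out libraries. In sprout ECs, 0 of the 10 members were called with the replicate block and 5 (all higher, as were 86.9% of all genes) with endothelial marker scaling. With the block the fold changes of Tgfb1 (-1.85), Acvrl1 (-1.80) and Eng (-1.06) stayed close to those of the main fit. The DESeq2 Wald test called 4, with Tgfbr2 added, and left-out libraries gave 2 to 4. The replicate numbers did not pair the libraries (mean correlation of same-numbered deviations -0.434 in sprouts and -0.0512 in tumors), and with crossed numbers 4 were called. Of the further pathway genes 2 were called, against 0 with the replicate block, 6 with DESeq2, 7 with no filter, 6 with no threshold on the fold (6.22% of all genes in either direction), 9 with crossed numbers, 31 higher with endothelial marker scaling, and 0 to 8 over left-out libraries (0 without STOP replicate 1, 1 without GO replicate 1, 8 without GO replicate 2). In tumor ECs 1 pathway gene, Ltbp4, was called higher with no filter, against 0.0411% of all genes. Endothelial marker scaling turned the sprout fold changes of Bmp4 (1.34), Eng (0.76), Acvrl1 (0.0091), Bmpr2 (1.07), Tgfbr1 (1.34), Tgfbr2 (0.23), Smad6 (0.84), Smad7 (1.74) and Id1 (1.21), the tumor value of Tgfbr1 (-0.13), and the differences between experiments of Bmp4 (-1.15), Eng (-0.55), Bmpr2 (-0.83), Tgfbr1 (-1.47), Tgfbr2 (-0.19) and Id1 (-1.62), with 1 member (Smad7) then called, against 28.7% of all genes. By its construction this scaling divides by markers that were lower in STOP. From 2 separate fits, 6 differences passed, against 3.88% of all genes. In tumor ECs Tgfb1 turned to -0.31 with the block and -0.17 with voom, and Id1 to 0.020 with voom. Over left-out libraries Tgfb1 ran from -1.27 to 0.84, Tgfbr2 from -0.22 to 0.71, Smad7 from -0.31 to 0.080 and Id1 from -0.35 to 0.16, and the Smad7 difference from -0.26 to 0.11. The cause of these changes was otherwise not tested. In all, 139 of 150 alternative values in tumor ECs, 91 of 110 in sprout ECs and 186 of 200 differences kept their direction and their side of the threshold. The lowest count of a member in any library was 38.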
